A study of Caenorhabditis elegans with 16 samples.

Results

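AWB neurons were followed through a single-cell atlas of the nervous system of young Caenorhabditis elegans larvae. AWB is a left-right pair of olfactory neurons in the amphid, the main head sense organ of the worm. The cells were chosen by the authors' deposited annotation, as cells of the class AWB and the tissue Neuron, and they numbered 295 of 89073 neurons and 151415 cells. How the authors assigned classes is not given in the sources used here. A gene that served to assign the class therefore had to differ, and its p-value measures only how repeatable the difference was over libraries.

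AWB ends in a wing-shaped cilium and senses volatile repellents. Odours are read by seven-transmembrane chemoreceptors in the cilium, which act through G proteins and guanylyl cyclases to change cyclic GMP, and cyclic GMP opens a cation channel made of TAX-2 and TAX-4. AWC, the neighbouring olfactory class that senses attractants, uses the same cyclic GMP pathway, and the LIM homeobox factor LIM-4 is known to set AWB apart from it.

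Hermaphrodites labelled wild type were dissociated at the first larval stage, cells that carried a fluorescent reporter were sorted, and transcripts were counted as unique molecular identifiers (UMIs) on the 10x droplet platform in 16 libraries. The sensory sort used strain PS9221, with syIs764[Ptax-4::GFP, Pocr-2::GFP], at 14 to 16 hours after hatching. The pan-neuronal sort used strain OH10689, with otIs355[rab-3(prom-1)::2xNLS-tagRFP], at 11.5 to 14.5 hours, and had 2 libraries. The unc-4, ceh-2 and acr-2 sort pooled cells of 3 strains at 13 to 17 hours, namely CZ631 with juIs14[acr-2::GFP + lin-15(+)], NC3523 with wdIs90[unc-4c::GFP + ceh-22::GFP] and PS3504 with syIs54[ceh-2::GFP + unc-119(+)] in an unc-119(ed4) background.

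The other libraries entered shares or levels but no test. Command interneurons came from NC3581, with otIs708[sra-11p::Scarlet + inx-6p18::tagRFP] and rhIs2[glr-1::GFP], at 12 to 16 hours. The unc-86 sort used the array kyIs262, which holds unc-86::myr-GFP beside odr-1::RFP, and the eat-4 sort OH9625 with otIs292[eat-4::mCherry + rol-6(su1006)], both at 12 to 15 hours. The flp-7 sort used NY2066 with ynIs66[flp-7p::GFP] at 14 to 17 hours and had 2 libraries. A live and a methanol-fixed library at 14 to 17 hours pooled NC3583, with the ceh-34p::HIS-24::mCherry array stIs10447, which also holds unc-119(+), and evIs111[F25B3.3::GFP + dpy-20(+)], and NC2957, with wdIs90[unc-4c::GFP] and ufIs26[unc-4::mCherry]. A pooled sort at 13.5 to 17 hours took OH16003 with otIs742[nlp-13::GFP + lin-15(+)], EG1285 with oxIs12[unc-47::GFP + lin-15(+)] and the lin-15 allele n765, ZM5488 with hpIs202[ceh-10::GFP + lin-15(+)], and uIs152[mec-3::RFP]. The 4 P-lineage libraries came from UD381, which carries hlh-3 promoter reporters and odr-1::gfp, at 11 to 14, 15.5 to 18.5 and 21 to 24 hours, the last with 2 libraries. The labels number libraries without saying whether they came from separate cultures, except for the eat-4 sort, whose label calls its library a biological replicate. The p-values therefore measure the spread between these libraries, which may be partly technical. That spread also carries the different make-up of the cells that each sort set against AWB.

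AWB cells were unevenly spread over the libraries, which came from sorts for different neurons. The sensory sort held 168 AWB cells, 2.50% of its neurons (exact 95% interval 2.14 to 2.90%). Pan-neuronal replicate 1 held 51 (0.821%, 0.612 to 1.08%) and replicate 2 held 33 (0.521%, 0.359 to 0.731%). The intervals of the sensory sort and the pan-neuronal libraries did not overlap, while those of the pan-neuronal libraries did. Among cells with at least 500 UMIs the shares were 2.59% in the sensory sort, 0 of 827 in pan-neuronal replicate 1 and 0.418% in replicate 2, so the share in replicate 1 rested on shallow cells. The unc-4, ceh-2 and acr-2 sort held 10 AWB cells and the 12 other libraries held 0 to 7 each. The methanol-fixed cells had 0 AWB cells of 1488 neurons, which allows a share of up to 0.202%. Intervals and such limits cover counting error only.

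**Figure D1:**
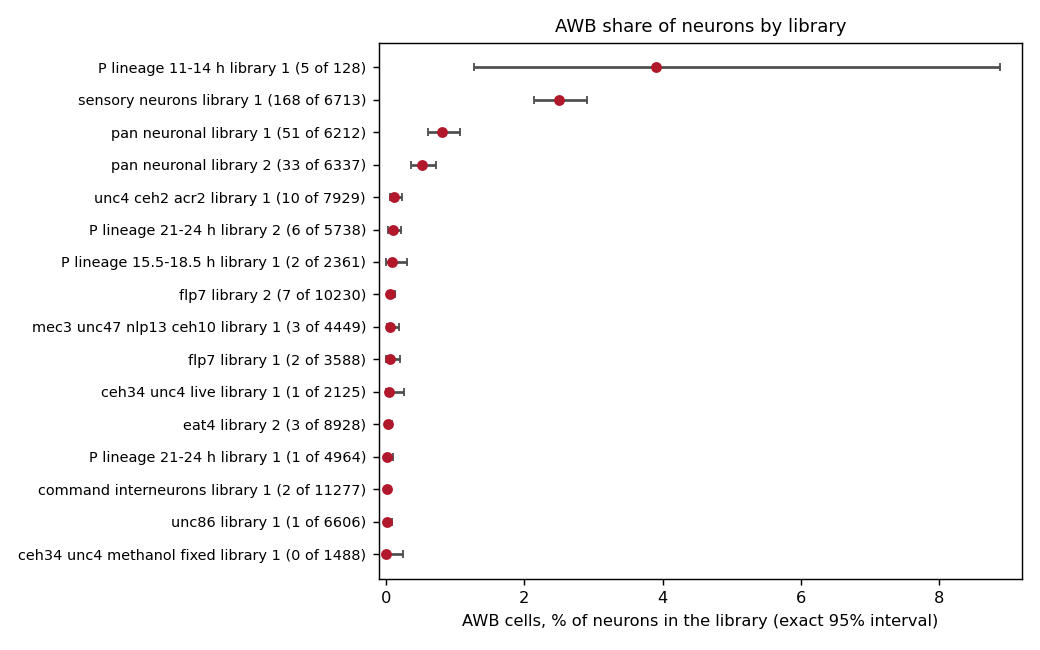
AWB cells as a percentage of the neurons of each library, one row per library, with the AWB and neuron numbers beside the name. Points are shares and bars are exact 95% intervals; the sensory sort stands at 2.50% and the pan-neuronal libraries at 0.821% and 0.521%, while the widest interval belongs to the P-lineage library with 128 neurons.

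AWB markers were found in the annotated cells of most libraries, and 5 libraries were set apart. Of the 5 markers used, str-1, srd-23, sru-38 and srab-24 encode chemoreceptors and lim-4 encodes the LIM factor. In the sensory and pan-neuronal libraries 197 of 252 AWB cells had a UMI of at least 1 marker, and 244 (96.8%) had a UMI of the 10 genes that led the comparison with other neurons. In the 4 P-lineage libraries and the unc-86 sort, 4 of 15 AWB cells had a marker UMI and 4 (26.7%) a UMI of the leading genes. The split was not clean, since in the P-lineage library of 11 to 14 hours 3 of 5 cells had each. Among the libraries kept, the eat-4 sort (3 AWB cells), the live ceh-34 and unc-4 sort (1) and flp-7 replicate 1 (2) had no marker UMI. The cells of flp-7 replicate 1 had no UMI of the leading genes either. Those 15 cells had a median of 2197 UMIs, and 5 of them held 23 UMIs of ceh-36, a homeobox gene of AWC and ASE, which was at 0 in every other AWB cell. They entered no test below, and levels pooled over libraries are given for the 11 other libraries, of which the methanol-fixed one held no AWB cell.

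The 252 AWB cells of the sensory and pan-neuronal libraries carried 112055 UMIs in the sensory sort and 11570 and 20138 UMIs in pan-neuronal replicates 1 and 2. Median UMIs per AWB cell were 683, 228 and 486, against 867, 227 and 592 in other neurons of the same libraries, in that order. In those libraries the AWC markers ceh-36, srt-26 and srt-28 were at 0 in AWB, as were all listed markers of ASE, ASK, ASJ, ADF and ASH and the ADL marker hlh-4. The AWC marker str-2 and the ADL marker srh-220 were listed but not measured. Of the other amphid lists, that of ASI gave 5 UMIs in the sensory sort and 1 UMI in pan-neuronal replicate 1, all of daf-7. AWA markers gave 2 UMIs and the AFD list 1 UMI, both in the sensory sort, and the ASG marker gcy-15 gave 1 UMI in pan-neuronal replicate 1. Cell barcodes recur between libraries in 5544 cells of the table, 7 of them AWB, and no AWB cell shared its barcode with an AWB cell of another library. A count of 0 needs care in this table, since 6862 of the 14799 genes with at least 100 UMIs were at 0 in at least 1 whole library, 863 of them in the sensory sort. The ASH receptor gene sra-6 was at 0 in all cells of these 3 libraries, so its 0 in AWB is uninformative.

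Against all other neurons, AWB was set apart by a small group of chemoreceptor genes and uncharacterised genes at near-exclusive levels, by 5 of 18 olfactory transduction genes tested and by nlp-3, while most other neuropeptide genes were lower. UMIs were summed over AWB and over all other neurons in the sensory sort and in pan-neuronal replicates 1 and 2, and levels below are UMIs per 1000000 UMIs of a sum (CPM), with the 3 libraries always in that order. Other neurons held 4924 other amphid sensory cells among 6545 in the sensory sort, 217 among 6161 in pan-neuronal replicate 1 and 225 among 6304 in replicate 2. The libraries thus did not repeat the same contrast, and the SE and p carry this change too. A gene was called at an adjusted p under 0.05 with at least a 2-fold difference. Of 4931 genes tested, 762 (15.5%) were called, 177 (3.59%) higher and 585 (11.9%) lower in AWB. The median log2 difference over all genes was −0.87, and each difference is to be read against that shift. With library totals in place of TMM scaling the median was −0.54 and the calls were 252 higher and 487 lower, so the share of calls that were higher was 34.1% in place of 23.2%. A gene could pass the filter on low counts through the side where it is high, so counts over listed genes are descriptions.

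Chemoreceptor genes gave 6 of the 10 higher genes with the smallest p. srd-23 had 955, 5704 and 5363 CPM in AWB, against 1.65, 0 and 0.686 CPM in other neurons. The log2 difference was 10.95 ± 0.96 (SE, 3 libraries; edgeR adjusted p = 1.98e-26), and AWB was far above other neurons in every library, with its lowest level in the sensory sort. srd-14 ran the other way among the libraries, with 4560, 951 and 1539 CPM in AWB, against 5.11, 0.571 and 1.14 CPM in other neurons (9.60 ± 0.92, edgeR adjusted p = 1.78e-22). Sort and age both differ between the sensory and the pan-neuronal libraries and cannot be told apart here. srh-30 was steadier, at 3864, 3457 and 3625 CPM in AWB and 23.2, 1.71 and 2.29 CPM in other neurons.

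srab-24 had 1303, 346 and 844 CPM in AWB and 3.62, 0.571 and 0.914 CPM in other neurons. srh-18 had 580, 1556 and 199 CPM in AWB, against 4.28, 0.571 and 0 CPM in other neurons. The AWB levels did not overlap those of other neurons for either gene. srt-43 rested on 23 UMIs in AWB and 2 in other neurons, a ratio of CPM of 976 (exact 95% interval 241 to 8540). The classical AWB reporter gene str-1 had 348, 259 and 199 CPM in AWB, against 0.494, 0 and 0.229 CPM in other neurons, a log2 difference of 9.18 ± 1.06 (edgeR adjusted p = 1.78e-15). str-1 rested on 39, 3 and 4 UMIs in AWB, yet the groups did not overlap.

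Of 1002 chemoreceptor genes in the table, 35 passed the filter. Of these 17 were called higher and 7 lower in AWB, beside 3.59% and 11.9% of all genes tested. The lower ones with the smallest p were srm-6, srg-25, sre-14, srh-230 and srz-24. srm-6 had 0 UMIs in AWB and was at least 6.88-fold lower there, and srg-25 likewise at least 5.70-fold, both against a floor of 3 UMIs over the AWB cells. Without the sensory sort 9 of 26 receptor genes were higher and 0 lower. The lower calls numbered 2 with DESeq2 or without pan-neuronal replicate 2, and 0 without the library block.

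Another 4 genes with no name beyond a sequence identifier stood beside the receptors. T08G5.15 had 5542, 4581 and 5115 CPM in AWB, against 3.62, 0 and 0.686 CPM in other neurons, and it had the smallest p of all genes tested (11.43 ± 0.99, edgeR adjusted p = 9.19e-27). R02D5.6 had 2758, 2506 and 2185 CPM in AWB and 5.27, 0.571 and 0.229 CPM in other neurons. R12B2.3 had 562, 1210 and 844 CPM in AWB and 1.65, 2.28 and 0.457 CPM in other neurons. For all of them AWB lay above other neurons in each library by more than the spread between libraries. C28A5.6 had 60 UMIs in AWB and 3 in other neurons, a ratio of CPM of 1697 (exact 95% interval 554 to 8461).

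**Figure D2:**
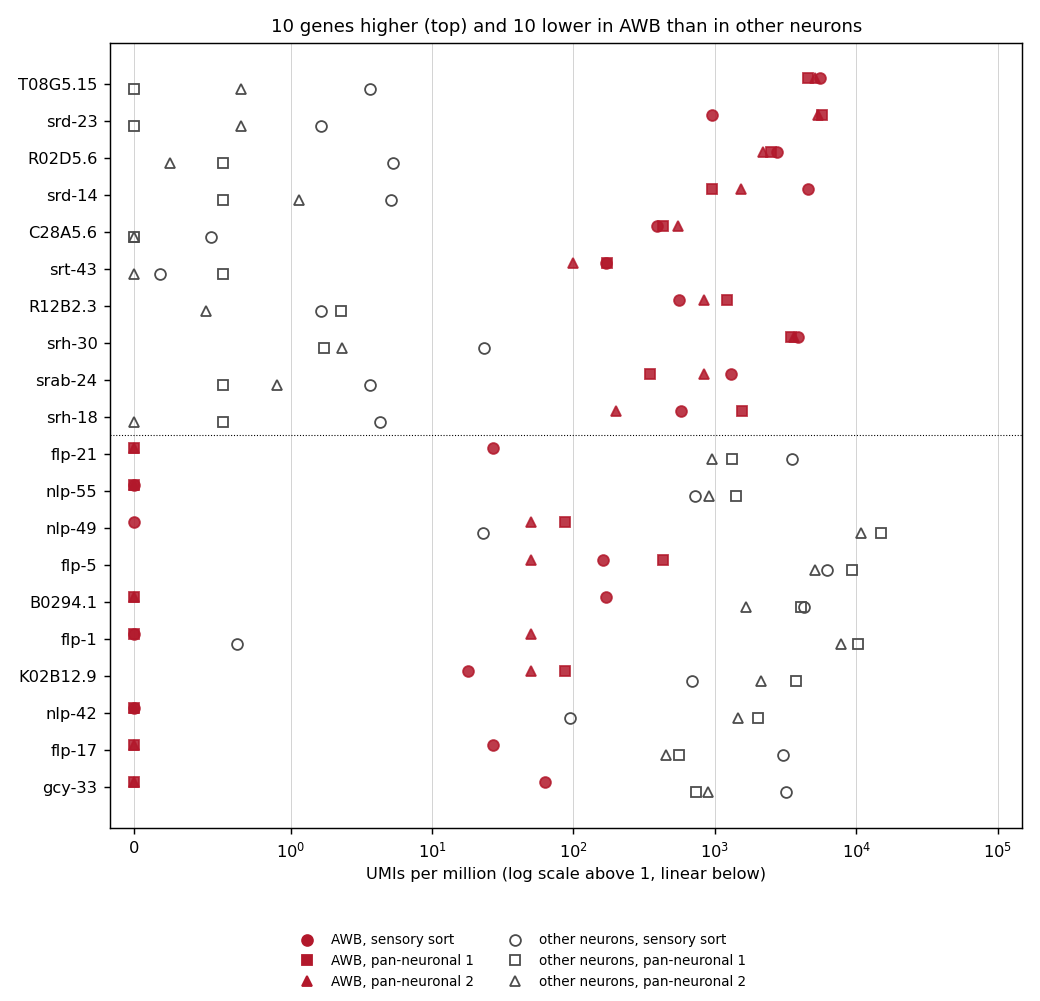
Level of the 10 higher genes (above the dotted line) and the 10 lower genes (below it) with the smallest p in AWB (filled) against other neurons (open), in CPM on an axis that is logarithmic above 1 and linear below. Each point is 1 of 3 libraries, told apart by shape; the filled and open points of the higher genes do not meet, while nlp-49 and flp-1 overlap, with other neurons of the sensory sort holding little of either.

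Pooled over the sensory and pan-neuronal libraries, most AWB cells carried T08G5.15 and srd-14, though the level of srd-14 was lower in both pan-neuronal libraries. A UMI of T08G5.15 was seen in 71.0% of 252 AWB cells and in 82.9% of the 129 that could be thinned to 500 UMIs, against 0.0789% of 19010 other neurons and 0.0337% of 8894 thinned ones. srd-14 was seen in 59.1% of AWB cells (78.3% thinned) and in 0.105% of other neurons (0.135% thinned). srd-23 was seen in 46.03% of AWB cells (38.8% thinned). Thinning left out all 51 cells of pan-neuronal replicate 1, none of which reached 500 UMIs, and other shallow cells. The thinned and unthinned shares thus come from different sets of cells, for the higher shares of T08G5.15 and srd-14 as for the lower one of srd-23. str-1 reached 14.7% of AWB cells (17.1% thinned), against 0.0210% of other neurons (0.0112% thinned). The median depth was 509.5 UMIs in AWB and 459 in other neurons, whose shares serve as the background of free RNA for genes they should lack.

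Transcription factors of AWB identity were higher. lim-4, which directs AWB fate, had 580, 778 and 1043 CPM in AWB, against 2.96, 28.5 and 42.1 CPM in other neurons (log2 difference 4.89 ± 0.74, edgeR adjusted p = 5.84e-09). sox-2, a SoxB factor, had 839, 1469 and 646 CPM in AWB and 33.9, 314 and 209 CPM in other neurons (2.09 ± 0.69, edgeR adjusted p = 0.0221). Both were higher in AWB in every library without overlap. ceh-37, an Otx-family homeobox gene, had 357, 0 and 99.3 CPM in AWB, against 53.7, 5.13 and 2.51 CPM in other neurons, and was called higher (2.84 ± 0.92, edgeR adjusted p = 0.0185) although the groups overlapped.

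Of 16 listed amphid transcription factors tested, those 3 were higher and 4 were lower, beside 3.59% and 11.9% of all genes tested. unc-86, a POU homeobox gene of many other neurons, had 0 UMIs in AWB and was at least 17.2-fold lower. hlh-4, a bHLH gene of ADL, had 0 UMIs and was at least 2.70-fold lower. egl-13, a SoxD gene, was lower at 17.8, 0 and 0 CPM in AWB, against 160, 61.0 and 74.7 CPM in other neurons. unc-42 was lower too but overlapped, with 0, 0 and 99.3 CPM in AWB and 34.9, 267 and 252 CPM in other neurons. Without pan-neuronal replicate 2, and likewise without the library block, 1 of the listed factors, lim-4, was higher and 1 lower. The sox-2 call was lost without any 1 of the libraries and with DESeq2, and its log2 difference was 0.93 without the sensory sort.

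Both guanylyl cyclase genes named here and a channel subunit gene of the cyclic GMP pathway were higher in AWB. daf-11, a receptor-type guanylyl cyclase needed for olfaction, had 875, 1902 and 1142 CPM in AWB, against 71.1, 2.85 and 6.17 CPM in other neurons (5.98 ± 0.77, edgeR adjusted p = 2.20e-12). odr-1, the second guanylyl cyclase of AWB and AWC, had 223, 86.4 and 248 CPM in AWB and 30.8, 1.71 and 3.89 CPM in other neurons (3.81 ± 0.86, edgeR adjusted p = 0.000267). tax-2, the channel's beta subunit, had 741, 519 and 397 CPM in AWB and 100.1, 7.42 and 5.49 CPM in other neurons (4.18 ± 0.72, edgeR adjusted p = 4.67e-07). None of these genes overlapped between the groups, though for odr-1 this rested on a single UMI in AWB in pan-neuronal replicate 1.

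Upstream of the cyclases, odr-3, the G protein alpha subunit of olfaction, had 1588, 519 and 745 CPM in AWB, against 357, 21.1 and 23.3 CPM in other neurons (3.16 ± 0.68, edgeR adjusted p = 0.000107). rgs-3, a regulator of G protein signalling, had 1303, 1210 and 1589 CPM in AWB and 1140, 37.7 and 72.2 CPM in other neurons (2.55 ± 0.72, edgeR adjusted p = 0.00505). The 2 groups were close in the sensory sort for rgs-3, where other neurons are mostly sensory, and far apart in the pan-neuronal libraries. tax-4, the channel's alpha subunit and 1 of the reporters behind the sensory sort, did not pass the test, at 53.5, 173 and 99.3 CPM in AWB and 48.8, 3.42 and 7.09 CPM in other neurons (1.28 ± 0.82, edgeR adjusted p = 0.306). It rested on 6, 2 and 2 UMIs. Of 18 listed transduction genes tested, 5 were higher and 0 lower, beside 3.59% and 11.9% of all genes tested. Without the library block 3 of 18 were higher. Without pan-neuronal replicate 2 the calls of odr-1, odr-3 and rgs-3 were lost (edgeR adjusted p = 0.137, 0.177 and 0.489), and daf-11 and tax-2 stayed.

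No transmitter gene was called higher in AWB. unc-17, the vesicular acetylcholine transporter, had 116, 86.4 and 49.7 CPM in AWB, against 80.7, 121 and 178 CPM in other neurons (−0.78 ± 0.77, edgeR adjusted p = 0.552), and the groups overlapped. A UMI of unc-17 was seen in 5.95% of AWB cells and in 6.44% of other neurons. eat-4, the vesicular glutamate transporter, had no UMI in 252 AWB cells, against 6.40% of other neurons with a UMI, and its level was at least 5.88-fold lower in AWB. unc-25, the GABA-synthesis gene, was at least 9.82-fold lower and ace-3, an acetylcholinesterase gene, at least 3.00-fold. The eat-4 and unc-25 calls were lost without pan-neuronal replicate 2. Of 6 monoamine genes tested 4 were called lower, beside 11.9% of all genes tested. They were cat-1, tdc-1, tph-1 and cat-4, each with 0 UMIs in AWB and a lower bound of between 2.57 and 3.76-fold. Those 4 calls and that of ace-3 were absent without any 1 of the 3 libraries.

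Of 16 synaptic vesicle genes, 0 were higher and 2 (12.5%) were lower, close to the 11.9% lower over all genes tested. The lower genes were unc-18 and ric-4, which act in vesicle docking and fusion. unc-18 had 8.92, 0 and 0 CPM in AWB and 55.3, 113 and 121 CPM in other neurons. ric-4 overlapped between the groups and was near the threshold (edgeR adjusted p = 0.0494). The count of lower vesicle genes was 0 without either pan-neuronal replicate and 4 without the sensory sort. All 7 peptide processing genes tested, among them the convertase egl-3 and the carboxypeptidase egl-21, were not called in either direction.

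Of the nlp, flp and ins genes tested, 1 was called higher, nlp-3. nlp-3 had 21579, 36560 and 22544 CPM in AWB, against 4018, 582 and 383 CPM in other neurons (4.11 ± 0.81, edgeR adjusted p = 1.84e-05), and the groups did not overlap. The call was lost without pan-neuronal replicate 1 or 2 (edgeR adjusted p = 0.302 and 0.401). A UMI of nlp-3 was seen in 97.6% of AWB cells, against 18.7% of other neurons and 54.6% of other amphid sensory cells. Of 52 nlp genes tested 1 was higher and 41 lower, and of 28 FMRFamide-like (flp) genes 0 were higher and 25 lower. Of 17 insulin-like (ins) genes 0 were higher and 12 lower. The shares over all genes tested were 3.59% higher and 11.9% lower. The median log2 differences were −4.86, −5.46 and −4.86 for nlp, flp and ins genes. They were −3.72, −3.99 and −3.54 when genes at 0 on 1 side were set to their bound, against −0.72 over all genes tested.

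The lower peptide genes with the smallest p included flp-21, which encodes a ligand of the receptor NPR-1, and flp-5. flp-21 had 26.8, 0 and 0 CPM in AWB, against 3511, 1317 and 955 CPM in other neurons. flp-5 had 161, 432 and 49.7 CPM in AWB and 6196, 9393 and 5102 CPM in other neurons. The groups did not overlap for either. nlp-55 and nlp-42 had 0 UMIs in AWB and were at least 42.6-fold and 41.4-fold lower. Without pan-neuronal replicate 2, 16 of 27 flp genes and 21 of 52 nlp genes were lower, and flp-5 was not (edgeR adjusted p = 0.0512). Without replicate 1, 25 of 57 nlp genes and 8 of 21 ins genes were lower, without the sensory sort 7 of 15 ins genes, and without the library block 6 of 17 ins genes.

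Several peptide genes were well counted in AWB without a call. ins-18 had 2856, 2939 and 3128 CPM in AWB, against 1356, 1098 and 608 CPM in other neurons (0.93 ± 0.64, edgeR adjusted p = 0.353). flp-16 had 1142, 1210 and 993 CPM in AWB and 835, 871 and 614 CPM in other neurons (−0.13 ± 0.62, edgeR adjusted p = 0.920). In both genes the CPM of every AWB sum lay above that of every sum of other neurons. The TMM-scaled difference missed the threshold for ins-18 and was negative for flp-16, so the direction for flp-16 depended on the scaling.

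A few peptide counts came from single cells. In pan-neuronal replicate 2, 1 AWB cell of 1899 UMIs held 257 of the 266 UMIs of flp-19, all 54 of flp-2 and all 55 of nlp-38. In the sensory sort 1 of 168 AWB cells held all 159 UMIs of nlp-18. Levels of those genes in AWB thus describe those cells, and whether they are doublets was not tested. nlp-3 had no such concentration, with at most 6.61% of its UMIs in any cell of a library.

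Neuropeptide receptor genes were mixed, beside shares of 3.59% higher and 11.9% lower over all genes tested. Of 52 tested 5 were higher, ckr-1, a cholecystokinin-type receptor gene, and frpr-13, npr-14, frpr-18 and npr-26. ckr-1 had 803, 432 and 695 CPM in AWB and 21.9, 30.2 and 49.1 CPM in other neurons (3.70 ± 0.71, edgeR adjusted p = 1.04e-05). Another 14 were lower, led by npr-15, at 0 UMIs in AWB and at least 5.11-fold lower, and npr-3. The lower calls numbered 0 without the sensory sort or without pan-neuronal replicate 2, 3 without replicate 1, and 5 with DESeq2 or without the library block. Without replicate 2, 1 receptor gene was higher, ckr-1. Of the gcy genes, which encode other guanylyl cyclases, 7 of 13 tested were lower, among them gcy-33, gcy-37, gcy-36, gcy-32 and gcy-35, soluble cyclases of the gas-sensing neurons. gcy-33 had 62.5, 0 and 0 CPM in AWB, against 3196, 732 and 893 CPM in other neurons. Without the sensory sort 1 of 12 gcy genes was lower, and without the library block or pan-neuronal replicate 2 the count was 4.

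Against the other amphid sensory classes alone, most chemoreceptor genes tested, lim-4, sox-2 and 5 of 16 transduction genes were again higher in AWB, and 17 of 28 cilium genes were lower. The comparison used the same 3 libraries, with 4924, 217 and 225 cells of 13 annotated amphid classes. Median UMIs per cell were 683, 228 and 486 in AWB and 806.5, 498 and 955 in the other amphid cells, and the part of depth in the differences was not tested. Of 1598 genes tested, 619 (38.7%) were called, 228 (14.3%) higher and 391 (24.5%) lower, with a median log2 difference of −0.15 (−0.37 with DESeq2 size factors). Of 20 chemoreceptor genes tested 15 were higher and 5 lower, namely srw-10, srh-230, sre-1, srz-10 and srr-4, beside those 14.3% and 24.5%. The AWB sums are those of the comparison with other neurons, so both comparisons share data.

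lim-4 had 580, 778 and 1043 CPM in AWB, against 1.09, 0 and 3.74 CPM in other amphid cells (8.79 ± 0.57, edgeR adjusted p = 1.16e-11). sox-2 had 839, 1469 and 646 CPM in AWB and 36.1, 31.5 and 63.5 CPM in other amphid cells (4.31 ± 0.39, edgeR adjusted p = 2.47e-09). daf-19, the RFX factor of ciliated neurons, was also higher (1.53 ± 0.47, edgeR adjusted p = 0.0102). The groups did not overlap for these 3 genes. Of 8 listed factors tested 5 were lower, beside 24.5% of all genes tested. ceh-36 had 0 UMIs in AWB and was at least 6.38-fold lower, unc-86 at least 13.2-fold and hlh-4 at least 6.54-fold. ceh-23 had 89.2, 0 and 0 CPM in AWB and 260.4, 456 and 818 CPM in other amphid cells. lin-11, a LIM homeobox gene, was lower with overlapping groups.

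Among transduction genes 5 of 16 were higher than in other amphid cells, daf-11, tax-2, pde-1, odr-1 and odr-3, and 3 were lower, ocr-2, gpa-2 and arr-1. Over all genes tested 14.3% were higher and 24.5% lower, so lower calls were no more frequent among transduction genes. daf-11 differed by 3.81 ± 0.40 and tax-2 by 2.64 ± 0.38 on the log2 scale. pde-1, a phosphodiesterase gene, had 857, 605 and 794 CPM in AWB and 250.0, 63.0 and 176 CPM in other amphid cells. ocr-2, the TRPV channel gene of AWA, ASH and ADL whose promoter was the other reporter of the sensory sort, had 8.92, 0 and 0 CPM in AWB and 152, 126 and 131 CPM in other amphid cells (−4.41 ± 0.96, edgeR adjusted p = 0.000537). gpa-2 encodes a sensory G protein alpha subunit and arr-1 an arrestin, and neither overlapped between the groups. No listed transduction gene was lower without the sensory sort, and 3 of 9 were higher.

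Cilium and intraflagellar transport genes were lower in 17 of 28 tested and higher in 0, beside 24.5% lower over all genes tested. Their median log2 difference was −1.54. osm-3, a kinesin-2 motor gene, had 17.8, 0 and 0 CPM in AWB, against 164, 94.5 and 153 CPM in other amphid cells (−3.53 ± 0.83, edgeR adjusted p = 0.00112). ift-74 had 26.8, 86.4 and 0 CPM in AWB and 226, 527 and 306 CPM in other amphid cells (−3.31 ± 0.61, edgeR adjusted p = 7.78e-05). daf-10, which encodes a transport complex A subunit, had 0 UMIs in AWB and was at least 9.13-fold lower. AWB lay below other amphid cells in every library for these genes. osm-6 did not pass, at 89.2, 86.4 and 49.7 CPM in AWB and 153, 94.5 and 138 CPM in other amphid cells. Counts were low, with 9 AWB UMIs in the sensory sort for osm-5. With at most 20 cells of each other class, 9 of 25 were lower and without the sensory sort 9 of 19, with 0 higher in both. Against all other neurons 1 of 32 was lower, daf-10, and that call was lost with DESeq2.

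**Figure D3:**
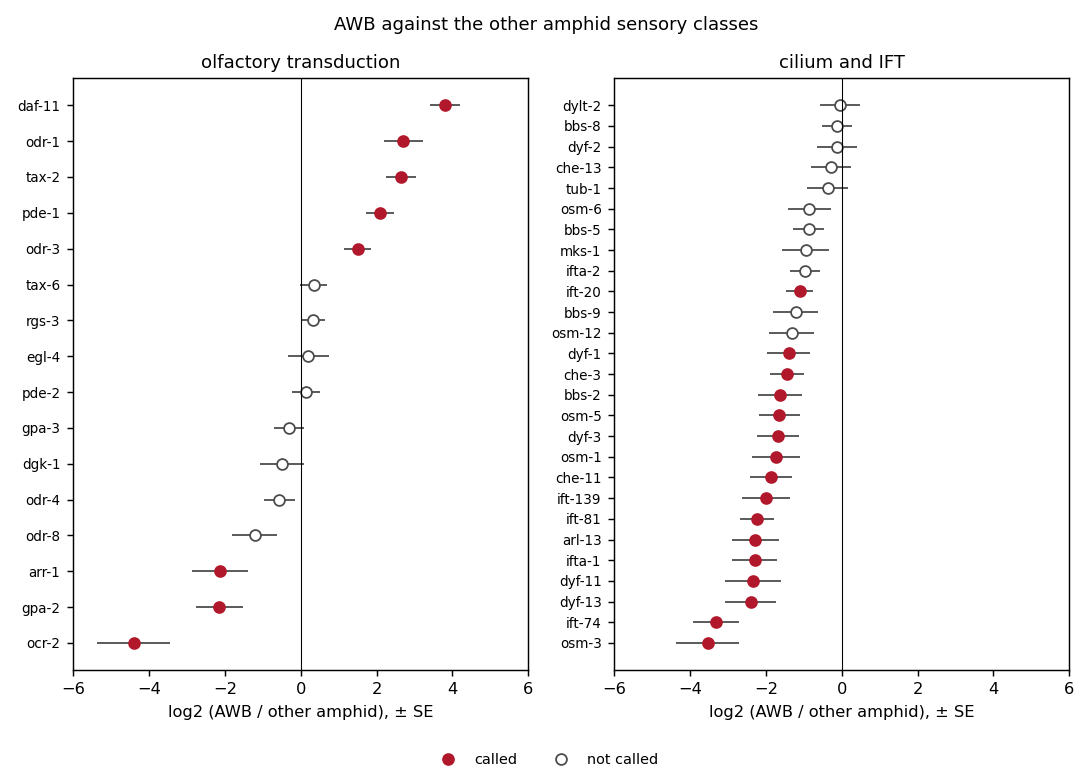
Log2 difference of AWB from the other amphid sensory classes, with its SE, for listed transduction genes (left) and cilium genes (right), from 3 libraries. Filled points were called and open points were not; 5 called transduction genes lie right of 0 and 3 left, and every called cilium gene lies left of 0. daf-10, at 0 UMIs in AWB, is not drawn.

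Most peptide genes tested were also lower than in the other amphid classes, where 24.5% of all genes tested were lower and 14.3% higher. nlp-3 was higher (2.28 ± 0.23, edgeR adjusted p = 1.20e-08), at 4555, 5840 and 4576 CPM in other amphid cells. nlp-48 had 821, 519 and 497 CPM in AWB and 9.99, 7.87 and 3.74 CPM in other amphid cells (6.37 ± 0.50, edgeR adjusted p = 2.81e-10). nlp-1 had 1232, 2334 and 1142 CPM in AWB and 119.9, 299 and 213 CPM in other amphid cells, and did not overlap either. nlp-47 and nlp-13 completed the 5 of 27 nlp genes that were higher, beside 18 lower. ins-18 was higher (1.45 ± 0.29, edgeR adjusted p = 0.000212) and 8 of 10 ins genes were lower, led by ins-22 with 1 UMI in AWB. flp-14 was higher but overlapped, and was not called with DESeq2, and 8 of 15 flp genes were lower. egl-21 was called among 5 peptide processing genes tested (1.06 ± 0.27, edgeR adjusted p = 0.00238), with overlapping groups, and was not called with DESeq2, without pan-neuronal replicate 1 or without the sensory sort.

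Among the lower genes with the smallest p, R102.2 had 1258, 605 and 248 CPM in AWB and 49771, 93811 and 56473 CPM in other amphid cells. B0294.1 had 170, 0 and 0 CPM in AWB and 5613, 56304 and 27064 CPM in other amphid cells. Both have only a sequence identifier for a name and were far lower in AWB in every library. On the higher side, C17G10.7 had 9942, 1642 and 1341 CPM in AWB and 260.2, 23.6 and 18.7 CPM in other amphid cells (5.56 ± 0.35, edgeR adjusted p = 8.32e-12), with the sensory sort the highest of the 3.

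Against AWC, the class closest to it in function, AWB differed in its receptors, in lim-4 and in a set of uncharacterised genes, while none of 4 transduction genes tested was called. A minimum of 20 cells on each side left the sensory sort alone, so a minimum of 10 cells was used. It took the sensory sort, pan-neuronal replicate 2 and the unc-4, ceh-2 and acr-2 sort, with values in that order and both AWC subtypes summed. Of 309 genes tested, 79 (25.6%) were called, 41 (13.3%) higher and 38 (12.3%) lower, with a median log2 difference of −0.02 (−0.15 with library totals). Only genes with many UMIs could pass the filter, given 10 AWB cells in the third library.

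T08G5.15 had 5542, 5115 and 6665 CPM in AWB, against 5.34, 0 and 0 CPM in AWC, which is 772 UMIs against 1 UMI and a ratio of CPM of 1196 (exact 95% interval 214 to 47318). The ratio holds for these libraries only, since its level in AWC_ON was higher over the 11 libraries, as given below. C44B11.4 had 8237, 6853 and 7220 CPM in AWB and 5.34, 0 and 0 CPM in AWC. hot-4, a gene named as a homologue of odr-2, had 3400, 3228 and 2361 CPM in AWB and the same single UMI in AWC. All AWB sums were above all AWC sums for these genes. ador-1, named for its likeness to adenosine receptors, had 5444, 2831 and 5276 CPM in AWB and 42.7, 0 and 0 CPM in AWC (7.19 ± 0.44, edgeR adjusted p = 0.000219). ckr-1 had 803, 695 and 833 CPM in AWB and 5.34, 0 and 0 CPM in AWC.

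The receptor genes srh-30, srd-23 and srab-24 had 0 UMIs in AWC and were at least 264-fold, 123-fold and 89.4-fold higher in AWB, against a floor of 3 UMIs over the AWC cells. lim-4 was at least 48.0-fold higher on the same terms. srd-14 had 4560, 1539 and 3610 CPM in AWB, against 80.2, 289 and 0 CPM in AWC (5.37 ± 0.69, edgeR adjusted p = 0.00327), and the groups did not overlap.

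Genes lower than in AWC included bigr-1, T02C12.5 and the peptide genes flp-4, flp-21 and ins-14. bigr-1 had 80.3, 99.3 and 138.8 CPM in AWB, against 4665, 4552 and 1595 CPM in AWC (−5.56 ± 0.40, edgeR adjusted p = 0.000399). B0294.1 had 170, 0 and 0 CPM in AWB and 19888, 51441 and 23454 CPM in AWC. ceh-23, a homeobox gene, had 89.2, 0 and 138.8 CPM in AWB and 1363, 5202 and 2857 CPM in AWC (−4.67 ± 0.59, edgeR adjusted p = 0.00318). For each of these AWB lay below AWC in all 3 libraries.

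The transduction genes tested were not called. odr-3 had 1588, 745 and 2361 CPM in AWB and 1363, 1084 and 1063 CPM in AWC (0.33 ± 0.34, edgeR adjusted p = 0.580). rgs-3 had 1303, 1589 and 972 CPM in AWB and 1747, 1084 and 1130 CPM in AWC (−0.06 ± 0.28, edgeR adjusted p = 0.952). The groups overlapped in both, as they did for pde-1. daf-11 had 875, 1142 and 1111 CPM in AWB and 860, 433 and 731 CPM in AWC (0.60 ± 0.40, edgeR adjusted p = 0.382), without overlap. A p that misses the threshold does not show that the classes are alike. nlp-3 had 21579, 22544 and 21800 CPM in AWB and 15122, 19652 and 12956 CPM in AWC, and was not called either (0.56 ± 0.40, edgeR adjusted p = 0.406). Of the peptide genes tested against AWC, 1 of 6 nlp, 3 of 5 flp and 1 of 2 ins genes were lower and 0 higher. The share lower over all genes tested was 12.3%, and that of nlp genes was near it. Most nlp genes that were lower against other neurons did not pass the filter here, so the 2 comparisons cannot be set against each other for them. sox-2 overlapped between the classes.

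**Figure D4:**
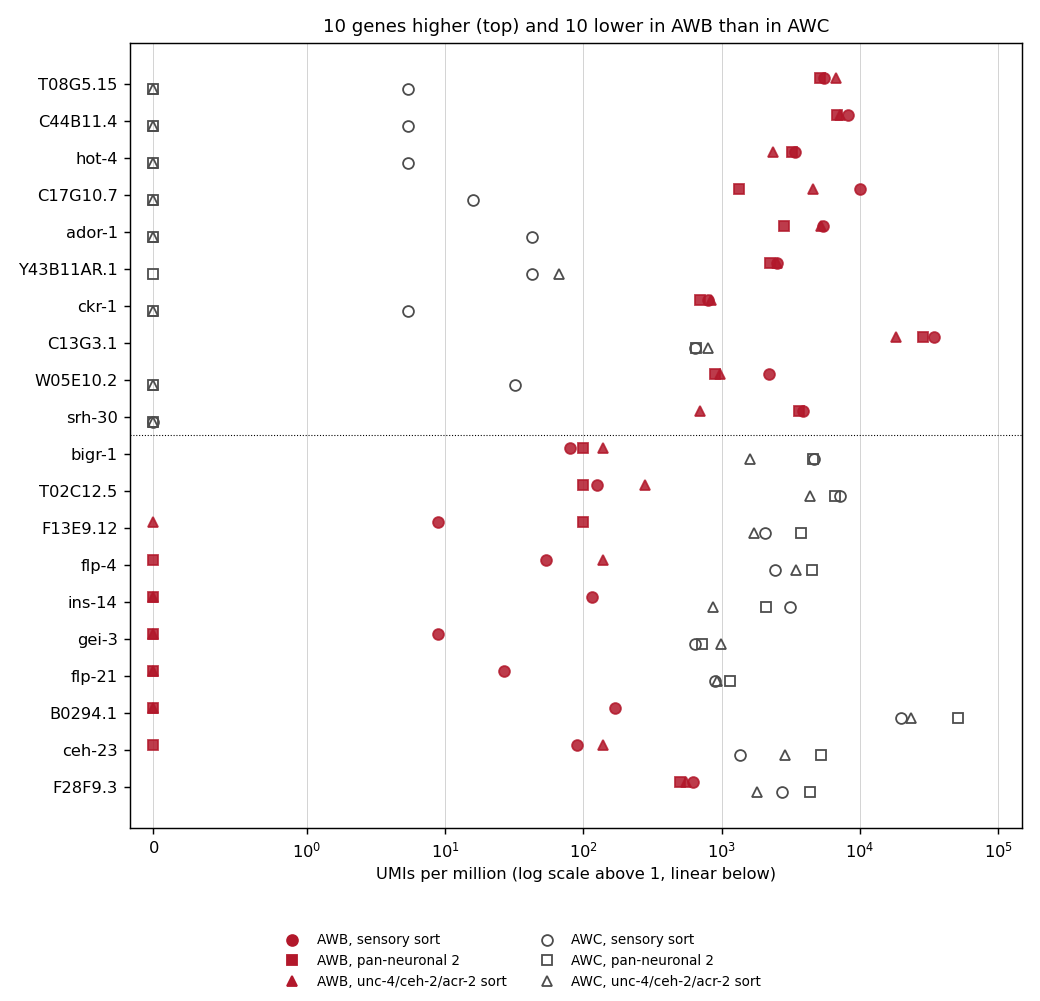
Level in AWB (filled) and AWC (open) of the 10 genes higher in AWB (above the dotted line) and the 10 lower (below it) with the smallest p, in CPM on an axis logarithmic above 1 and linear below. Each point is 1 of 3 libraries; filled and open points do not overlap for any of the 20 genes.

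Chemoreceptor genes counted in AWB were ranked over neuron classes. Over the 11 libraries, 280 AWB cells had 27 chemoreceptor genes with at least 10 UMIs. AWB had the highest level of all 117 neuron classes of at least 20 cells in 17 of them (63.0%), and held over 50% of the gene's UMIs in neurons in 9. The genes entered through their UMIs in AWB, and other classes gave like shares by the same rule, with ADL highest in 249 of 341 genes (73.0%), AWA in 38 of 59 (64.4%), AWC_OFF in 16 of 21 (76.2%) and ADF in 33 of 73 (45.2%). AWB held 95.5% of the neuronal UMIs of srd-23, 93.3% of srd-14, 92.9% of sru-31, 90.4% of str-1 and 80.0% of str-240. For srh-30 the share was 68.3%, with PHA, a tail sensory class, next at 584 CPM against 3514 CPM in AWB. srr-4 was the opposite case, with AWB at rank 22 and 69.2 CPM. The counts of 27, 17 and 9 were the same over all libraries.

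Other receptors were shared with particular classes. srsx-3 was at 245 CPM in AWB and at 804 CPM in AWC_OFF. str-116 was at 189 CPM in AWB and 273 CPM in AWC_OFF. AWB was at rank 2 in both. Receptor genes together took 1.65% of AWB UMIs, at rank 6 of 117 classes, with ADL at rank 1 with 2.78%.

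Cells thinned to 500 UMIs had 5.41 chemoreceptor genes on average in AWB, with 5 as the median and 11 as the most. AWA had 6.31 and ADF 6.34. ADL, ASJ, ASH and ASK had more, at 14.3, 11.0, 10.5 and 9.29, and ASI, AWC_OFF and AWC_ON fewer, at 4.27, 3.62 and 1.89. AFD, ASEL, ASER and ASG had under 1 on average, between 0.378 in AFD and 0.914 in ASER. The mean over all other amphid cells was 7.38, above that of AWB. In the sensory sort the mean was 5.50 over 113 cells and in pan-neuronal replicate 2 it was 4.75 over 16 cells. At least 3 receptor genes were found in 94.6% of 129 thinned AWB cells, against 74.5% of all other amphid cells. By class this share was 95.2% in AWA, 96.7% in ASH, 97.3% in ASK, 98.1% in ASJ, 99.4% in ADL and 91.2% in ADF, and at most 5.86% in AFD, ASEL, ASER and ASG.

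**Figure D5:**
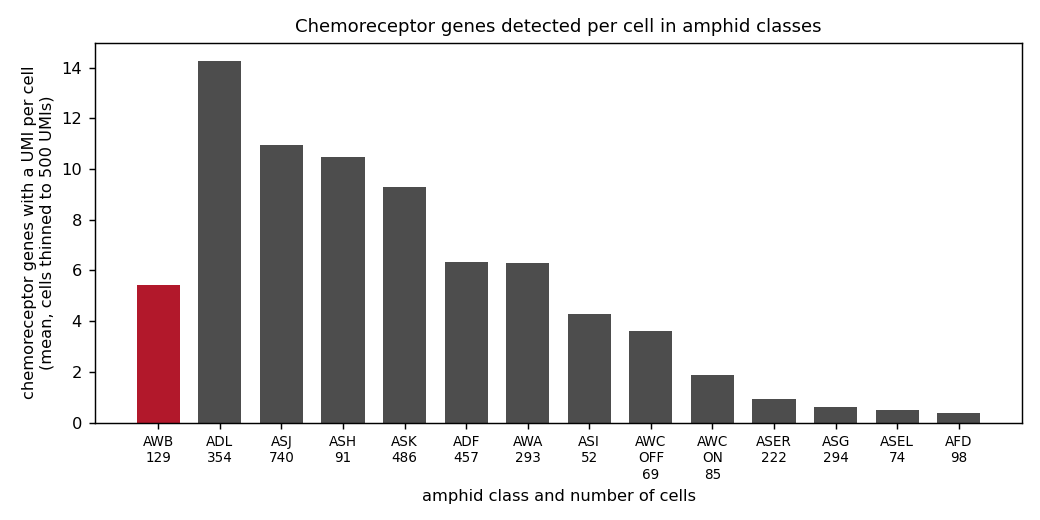
Mean number of chemoreceptor genes with a UMI per cell thinned to 500 UMIs, pooled over the sensory and pan-neuronal libraries, for AWB (left, coloured) and the other amphid classes, with cell numbers under the names. AWB stands at 5.41, below ADL at 14.3 and above AWC_OFF at 3.62 and AWC_ON at 1.89; bars carry no error because cells are not replicates.

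The leading genes had AWB as their class of highest level in both kinds of sort. They were chosen as higher in AWB in these same libraries, so a high rank there follows largely from the choice. T08G5.15 was at 5369 CPM in AWB over the 11 libraries, with AWC_ON next at 45.5 CPM, above each AWC sum of the test against AWC. R02D5.6 was at 2634 CPM in AWB, with PHA next at 242 CPM. C13G3.1, which was not among the 10 leading genes, was at 34936 CPM in AWB, and ASK followed at 11403 CPM. Its call as higher than in other neurons was lost without pan-neuronal replicate 1 or 2 (edgeR adjusted p = 0.186 and 0.266). lim-4 differed from these, since AWB was at rank 5 of 117 classes with 679 CPM, below SMB with 1501 CPM, and at rank 1 among the 22 classes of the sensory sort. sox-2 was likewise at rank 10 over the 11 libraries, with URA highest at 3278 CPM, and at rank 1 in the sensory sort. The transduction genes daf-11, tax-2, odr-1 and odr-3 were at rank 1 over the 11 libraries, with AWC_OFF or AWC_ON next in each, and daf-11 was at rank 2 in the sensory sort.

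Whole profiles placed AWB nearest to AWC. Pearson's r of log2(CPM + 10) over 14139 genes was 0.804 with AWC_ON, 0.788 with AWC_OFF, 0.776 with ASG and 0.770 with AWA, out of 117 classes. Within the sensory sort the order was AWC_ON (0.748), AWC_OFF (0.735) and ASG (0.717) among 22 classes. These values are across genes, which are not independent, and share libraries and depth. In pan-neuronal replicates 1 and 2 AWC had 8 and 16 cells, and neither subtype reached the 20 cells needed for a class. AIA (0.589) and AUA (0.581) came nearest there, ahead of the amphid classes that had enough cells.

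The 28 AWB cells of the 8 further libraries, the methanol-fixed one among them with 0, which entered no test against other neurons, also held the leading genes. The 10 leading genes summed to 14576 CPM in them, against 8.23 CPM in other neurons of those libraries, and 25 of the 28 cells had a UMI of at least 1. In the sensory and pan-neuronal libraries, from which the 10 were chosen, the sums were 20659 CPM in AWB and 27.7 CPM in other neurons. By library the sum in AWB ran between 6036 and 18328 CPM, except in flp-7 replicate 1, where 2 cells with 258 UMIs held none. The P-lineage and unc-86 libraries were set apart partly on this measure, at 187 CPM over their 15 AWB cells, so the level in the 28 cells is not an independent check.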

How the data were processed

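The authors deposited a table of raw UMI counts, 18570 genes by 151415 cells, and an annotation of each cell's library, tissue and class. Cell Ranger 6.0.0 is named in the submitters' processing notes. No source used here gives the genome build, cell filters, background correction or doublet removal. No coordinates are printed, and no doublet caller was run. Cells were matched to libraries by the experiment names in the annotation. The annotation gives other hours than the labels for the P-lineage libraries of 11 to 14 and 21 to 24 hours: the first was matched as the only name left and the replicates of the second by their order words, so these matches are less certain. None entered a test.

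Counts were summed per library for AWB and for the cells it was compared with. The test was the quasi-likelihood one of edgeR 4.0.16 (with limma 3.58.1 and R 4.3.3) after filterByExpr and TMM scaling, with library as a block, since both sums of a library share sort, age and depth. Libraries needed 20 cells on each side, or 10 for AWC. P-values were Benjamini-Hochberg adjusted over all genes tested, and calls needed adjusted p under 0.05 and an absolute log2 difference of at least 1. SE is the absolute log2 difference over the square root of F. Alternatives included DESeq2 1.42.0, other scalings, filters and minimum cell numbers, and each library left out. The script was tested on simulated data.

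Named were, in each comparison, the 10 called genes with the smallest p in each direction, the members of short lists, and in each gene family the 5 called genes with the smallest p in each direction. Receptor and peptide genes with at least 10 UMIs in AWB, and genes whose UMIs lay in few cells, were named after their values were seen. The members and lists were chosen with earlier results of these data known. Python 3.11.15, numpy 2.4.6, pandas 2.3.3, scipy 1.17.1 and matplotlib 3.10.9 were used for the rest.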

Additional observations from a re-analysis of the deposited data

Results flagged for a closer look

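The muscle myosin gene unc-54 took a large share of the UMIs of AWB cells in 5 libraries that entered no comparison, and this was flagged because the signal lay outside the tested data and far above that in other neurons of the same libraries. The share was 61.0% in the P-lineage library of 11 to 14 hours (5 AWB cells), against 0.229% in other neurons. It was 46.3% at 15.5 to 18.5 hours (2 cells), against 0.182% in other neurons. At 21 to 24 hours it was 29.5% in replicate 1 (1 cell) and 36.1% in replicate 2 (6 cells), against 0.192% and 0.237% in other neurons. In the unc-86 sort it was 57.7% (1 cell), against 2.92% in other neurons. Cells annotated as muscle and mesoderm in these 5 libraries had shares between 0.335% and 0.586%.

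By cell, the share ran between 0.709% and 65.3% over the 14 P-lineage cells. The P-lineage strain UD381 and the unc-86 strain carry odr-1::gfp and odr-1::RFP, and odr-1 is active in AWB and AWC. In the tested libraries unc-54 took 1.95%, 2.71% and 9.48% of AWB UMIs in the sensory sort and pan-neuronal replicates 1 and 2, against 1.55%, 9.21% and 20.03% in other neurons. The other muscle markers measured, myo-3, unc-15, tnt-2 and mlc-2, were at 0 in the 15 AWB cells of the P-lineage and unc-86 libraries, against 19.2 CPM in other neurons and 14380 CPM in muscle and mesoderm cells there. Worm reporter transgenes often end in the untranslated end of unc-54, and no source used here says whether these do, so reads of the gene and of a reporter cannot be told apart. The cause of the unc-54 share was not tested.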

How the results depend on the processing

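Against other neurons the 177 higher and 585 lower genes became 168 and 374 with DESeq2, 62 and 150 with at least 50 cells on each side (the fit without pan-neuronal replicate 2), and 62 to 126 and 150 to 283 when a library was left out. Against other amphid classes the 228 and 391 became 253 and 923 without a filter on low counts, and 116 to 246 and 267 to 622 when a library was left out. Against AWC the 41 and 38 became 104 and 100 with cells of at least 500 UMIs, 144 and 158 without the filter, and 35 to 141 and 31 to 123 when a library was left out. DESeq2 tested the same genes in the same libraries, and the cause of its lower counts was not tested. The others tested another number of genes. Without the library block, which pairs the 2 sums of a library, the counts were 94 and 267 against other neurons, 193 and 325 against amphid classes, and 38 and 32 against AWC. The AWB share of pan-neuronal replicate 1 was 0 among cells with at least 500 UMIs.

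Of 93 named genes called against other neurons, 42 kept call and direction in every alternative that tested them, and all 93 kept direction. Of 88 called against amphid classes, 68 kept the call and all 88 the direction, and all 25 called against AWC kept both. An alternative in which a gene was not tested was passed over. Over all calls fewer held with a library left out. Against other neurons 208 to 333 of 762 genes were called again, against amphid classes 339 to 565 of 619 and against AWC 56 to 77 of 79. The first 2 comparisons could not be fitted with cells of at least 500 UMIs, which left 1 library. Depth limits genes at 0 in AWB, whose fold changes are given as bounds.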
